A study of Homo sapiens with 8 samples.

Results

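The mRNAs of nuclear pore proteins and nuclear transport receptors were followed through an immunoprecipitation of the small-subunit ribosomal protein RPS6 in 4 cancer cell lines. The genes were chosen by a rule on their names that used no measured values, although earlier results of these data were known. They were all genes of the deposited tables with symbols of the NUP, NUPL, IPO, TNPO, XPO, KPNA, KPNB and RANBP series, together with RAN, RCC1, TPR, CSE1L, NDC1 and RANGAP1. This gave 58 of 57756 genes, of which 57 reached a mean of 10 counts per library and were tested. The remaining gene, KPNA7, an importin alpha that is known from early embryos, had 0 to 2 fragments in the inputs and 0 to 16 after RIP, and no comparison was made for it.

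RNA bound to RPS6 was recovered with an antibody by RNA immunoprecipitation (RIP), and RNA of the same lysate without immunoprecipitation served as input. The lines were Hep3B (hepatocellular carcinoma), HCT116 (colorectal cancer), DU145 (prostate cancer) and SW1990 (pancreatic cancer). No treatment or genetic change separated the lines, and each had 1 RIP and 1 input library, so that 4 pairs were compared and no pair had a replicate within its line. The liver pair carried the name Hep3B in the paper but Huh7 in the cell line field of the labels. The sample titles gave only a shortened name, without Hep, which was read as Hep3B. The pair is called Hep3B here.

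Nuclear pore complexes are channels through the nuclear envelope, built from rings of scaffold nucleoporins around a channel lined by nucleoporins with phenylalanine-glycine (FG) repeats. Import receptors (importins, transportins) bind cargo in the cytoplasm and release it when they meet RanGTP in the nucleus, whereas exportins bind cargo together with RanGTP and release it in the cytoplasm. RCC1 on chromatin loads Ran with GTP, and RANGAP1 with RANBP1 or RANBP2 on the cytoplasmic side turns GTP over. Ribosomal proteins enter the nucleus and ribosomal subunits leave it by these routes. Introns of IPO7 and RCC1 carry the H/ACA snoRNAs SNORA23 and SNORA73B, which ties this group of genes to snoRNAs. Many H/ACA snoRNAs guide pseudouridylation of rRNA, which was not measured here.

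Inputs held 35796168 to 54209632 fragments and RIP libraries 34630363 to 42610074. The check of the cell lines against their markers was met for Hep3B only, where 8 of 8 liver markers had their highest input level. The 6 intestinal markers summed to 6.28 FPKM in the HCT116 input and to 251 FPKM in the SW1990 input, the 5 prostate markers summed to 9.49 FPKM in DU145, and the 6 pancreatic duct markers summed to 276 FPKM in SW1990 and to 572 FPKM in HCT116. By their sums, both lists thus went against the labels of HCT116 and SW1990, and 0 of 6 intestinal markers were highest in HCT116. The Hep3B input also held 170 FPKM of the intestinal list. In the pancreatic list, KRT19 alone gave 570 FPKM of the HCT116 sum. Of that list, 2 of 6 markers, AGR2 and TFF1, were highest in SW1990, so it does not decide between the labels. The names of the lines are those of the labels, except for Hep3B, which is the name in the paper. A library with an unspecific antibody was not analysed here, so RIP is read against input alone, and binding to RPS6 and carry-over of abundant RNA cannot be told apart.

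The first transcribed bases are shown for a few of these genes because mRNAs of ribosomal proteins, and many host genes of snoRNAs, are known to begin with C followed by a run of pyrimidines, the 5′ terminal oligopyrimidine (5′TOP) motif. The sequences are those of the transcript starts of RefSeq on GRCh38.p14, each 20 bases long on the transcribed strand. Capitals mark a C at the first base together with the C and T that follow it without a break, where that run is at least 5 bases long. A start without capitals holds no such run.
IPO7, chr11:9384652-9384671, plus strand: CCTTTCgcgccggttgccgc
RCC1, chr1:28506043-28506062, plus strand: CCTTTTTggagacagattcg
RCC1, another start, chr1:28518226-28518245, plus strand: agaggcctgcagagcgcatg
RANGAP1, chr22:41302350-41302369, minus strand: CTTCCCgcgggcccggctgc
RANGAP1, another start, chr22:41286168-41286187, minus strand: gccgcggtgcggagagcagg
NUP133, chr1:229508322-229508341, minus strand: CTCTTCCCTTaggtgtttaa
NDC1, chr1:53838277-53838296, minus strand: CTCCTgtacgccctagacta
IPO4, chr14:24188797-24188816, minus strand: ggcccagtagcggcggctca
NUP210, chr3:13420303-13420322, minus strand: acctgctggcctggcgcgcg
RAN, chr12:130872066-130872085, plus strand: gaattgcgcttccgccatct

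Both snoRNA hosts had such a start, as did RANGAP1, NUP133 and NDC1. These were 5 of the 51 genes of the group with a listed start (9.8%), against 965 of 15167 protein-coding genes (6.36%) and 45 of 63 ribosomal protein genes (71.4%). Among the 5, the counts of RCC1, RANGAP1 and NUP133 were higher after RIP, those of NDC1 were lower and those of IPO7 did not pass the test. IPO4 and NUP210, both far higher after RIP than in input, and RAN, the most abundant mRNA of the group in 3 of 4 inputs, began without the run. A match is a description of letters at a listed start, and which start was used in these cells was not tested.

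The first comparison asked how these mRNAs were distributed between RIP and input. With edgeR's quasi-likelihood test on counts, blocked by cell line and adjusted over all 19921 genes tested, 25 of the 57 mRNAs were higher in RIP (43.9%) and 16 were lower (28.1%), and 16 did not pass. Among all genes tested 26.5% were higher and 24.9% lower, and among protein-coding genes 32.0% were higher and 26.2% lower. The median log2 fold change of RIP over input was 0.35 for the 57 mRNAs, -0.05 for all genes tested and 0.11 for protein-coding genes, and the mRNAs of the group reached from -2.0 (RANBP6) to 3.08 (IPO4). On log2(FPKM + 0.1) and log2(FPKM + 1) with limma, 31 were higher in both, and 7 and 10 were lower, where 27.6% and 28.2% of all genes were higher and 19.3% and 19.9% lower. Without the block 15 were higher and 4 lower, where calls fell over all genes too, to 7.16% higher and 6.75% lower. The group lost 22 calls in that fit, including those of NUP160, NUP133, NUP85, NUP43, NUP37, NUP35, NUP214, NUP88 and KPNA3. With DESeq2 28 were higher and 16 lower, against 28.4% and 27.1% of all genes.

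Levels in FPKM (fragments per kilobase of transcript, relative to the depth of the library) gave a similar picture line by line. RIP exceeded input in all 4 lines for 35 of the 57 mRNAs (61.4%, against 33.7% of all genes that averaged at least 1 FPKM) and lay under it in all 4 for 14 (24.6%, against 24.6%). All RIP levels lay above all input levels for 24 (42.1%, against 12.3%) and below them for 5 (8.77%, against 9.09%). A ratio of at least 2-fold higher on log2(FPKM + 1) was reached by 19 mRNAs in Hep3B cells, 26 in HCT116, 21 in DU145 and 21 in SW1990, which is 33.3%, 45.6%, 36.8% and 36.8% of the group, where 22.8%, 22.4%, 22.1% and 23.8% of all genes did so. A ratio at least 2-fold lower was rare in the group, with 3, 2, 4 and 4 mRNAs in the same order of lines, against 13.0%, 16.7%, 17.0% and 19.5% of all genes. All genes include noncoding ones in these shares, which were not counted for protein-coding genes alone. Protein-coding genes had higher medians than all genes, so these shares may overstate how far the group stands apart. The median log2 ratio of the 57 mRNAs was 0.66, 0.75, 0.68 and 0.80. That of all genes, noncoding ones included, was 0.15, 0.02, 0.06 and 0.03, and that of protein-coding genes 0.29, 0.14, 0.16 and 0.18. From TMM-scaled counts, which are not divided by length, the median of the group was 0.051, 0.46, 0.44 and 0.71. No median of other genes is given on that scale, so these values have no background.

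**Figure D1:**
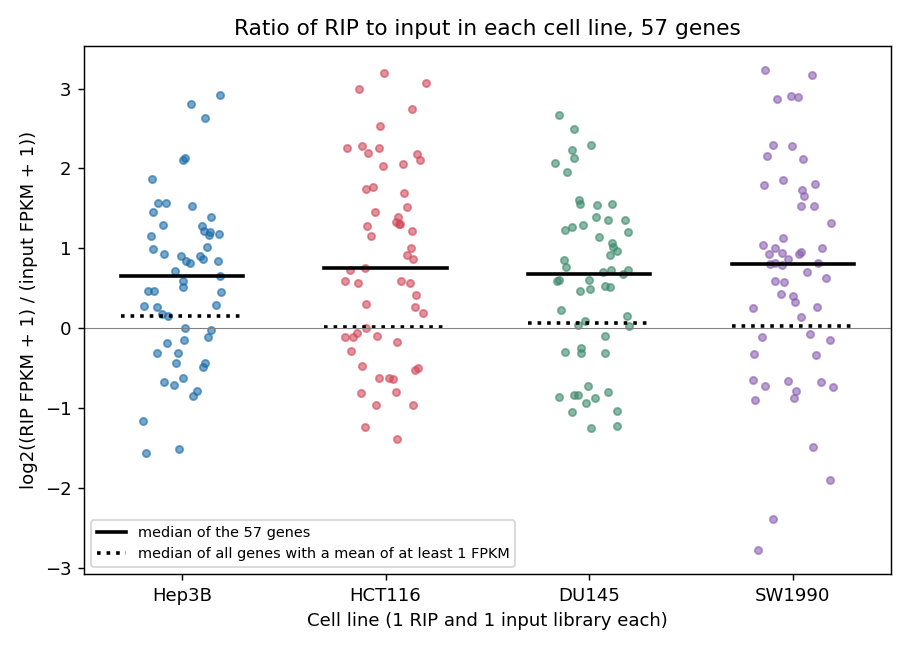
Log2 ratio of RIP to input, from FPKM + 1, for the 57 mRNAs in each of the 4 cell lines, with 1 point per gene, a solid line at the median of the 57 and a dotted line at the median of all genes that averaged at least 1 FPKM. The solid lines lie at 0.66 to 0.80 and the dotted lines at 0.02 to 0.15, and the points spread from -2.78 (RANBP6, SW1990) to 3.23 (IPO4, SW1990).

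Within every structural part of the pore that had more than 3 tested genes, some mRNAs were higher and some lower after RIP. In the Y complex, the scaffold of the outer rings, NUP160 (log2 fold change 1.64 ± 0.21, SE), NUP133 (1.24 ± 0.24) and NUP85 (1.12 ± 0.20) were higher, NUP43 (-1.18 ± 0.21) and NUP37 (-1.34 ± 0.23) lower, and NUP107 (0.18 ± 0.23) did not pass. NUP37, a small beta-propeller subunit, had input levels of 24.0 FPKM in Hep3B cells, 42.6 in HCT116, 32.1 in DU145 and 35.2 in SW1990. After RIP it had 10.2, 30.5, 17.5 and 11.9 FPKM in the same order. RIP was below its own input in all 4 lines, while the HCT116 RIP level lay above the Hep3B input (adjusted p 0.000688).

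The inner ring, which anchors the scaffold to the membrane, held some of the highest ratios. NUP188 (2.72 ± 0.26), NUP205 (1.88 ± 0.24) and NUP93 (1.82 ± 0.19) were higher, NUP155 (0.35 ± 0.21) did not pass, and NUP35 (-1.15 ± 0.22), which binds membranes, was lower. NUP188 rose from 10.5 to 33.0 FPKM in Hep3B cells, from 39.4 to 371 in HCT116, from 34.8 to 168 in DU145 and from 12.9 to 99.96 in SW1990. Its RIP level was above its own input in each line, the Hep3B RIP level lay under the HCT116 and DU145 inputs, and its RIP levels differed 11.2-fold between lines where its inputs differed 3.77-fold. It was 6.61-fold higher over the 4 pairs (adjusted p 2e-05), a call that was lost without the block (2.87 ± 0.85, adjusted p 0.0577). Its deposited locus on hg19 (chr9:131683174-131790582) was shared with 5 other genes, so its counts may hold reads of these.

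Among the FG nucleoporins of the central channel, NUP98 (1.6 ± 0.25), which docks transport receptors and mRNA export factors, and NUP62 (1.21 ± 0.18) were higher. NUPL1 (also NUP58, -1.19 ± 0.19) and NUP54 (-1.54 ± 0.22), the partners of NUP62 in a stable complex, were lower. NUP54 stood at 33.8 FPKM in the Hep3B input, 33.8 in HCT116, 19.7 in DU145 and 45.6 in SW1990, and at 18.4, 18.9, 10.4 and 11.4 FPKM after RIP. All of its RIP levels were below all of its inputs, and the SW1990 ratio was the lowest (2.90-fold lower over the pairs, adjusted p 0.000231). NUP62 had 36.4 to 47.0 FPKM in the inputs and 80.4 to 125 after RIP, and these ranges did not overlap either. NUPL1 had 42.0 to 73.1 FPKM in the inputs and 36.7 to 41.4 after RIP, with a log2 ratio of only -0.02 in Hep3B. The call for NUPL1 was lost on both FPKM scales.

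On the cytoplasmic filaments, NUP214 (1.10 ± 0.18) and NUP88 (0.84 ± 0.22), which bind each other, were higher. RANBP2, the large filament protein that holds SUMO-modified RANGAP1 at the pore, had 14.5, 8.96, 11.3 and 13.6 FPKM in the inputs of Hep3B, HCT116, DU145 and SW1990 and 16.6, 25.1, 16.1 and 17.2 FPKM after RIP. Its levels did not overlap, yet its counts did not pass the test (0.26 ± 0.24, adjusted p 0.395). The tables list 7 RGPD genes, near copies of RANBP2, with a summed 15.2 to 28.3 FPKM in the inputs and 23.0 to 31.7 after RIP, so how reads were split between them makes the level of RANBP2 uncertain. NUPL2 (NUP42), a small partner of the mRNA export factor GLE1, fell from 56.7 to 19.2 FPKM in Hep3B cells, from 14.8 to 9.26 in HCT116, from 20.7 to 9.44 in DU145 and from 31.8 to 5.26 in SW1990. It was lower in each pair, with log2 ratios from -0.62 in HCT116 to -2.39 in SW1990, and 3.01-fold lower over the pairs (adjusted p 0.000763), but its call was lost without the block.

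The nuclear basket, which faces the nucleoplasm, had 0 of 3 mRNAs higher, a number too small to read against the share of all genes. NUP50 was lower (-0.57 ± 0.20, adjusted p 0.0351), and NUP153 (0.30 ± 0.18) and TPR (0.13 ± 0.20) did not pass. The call for NUP50 was lost on both FPKM scales, without the block and without the Hep3B, HCT116 or DU145 pair, and was kept without the SW1990 pair.

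The membrane nucleoporins went in opposite directions. NUP210 (gp210), whose mass lies in the lumen of the nuclear envelope, rose from 20.7 to 150.2 FPKM in Hep3B cells, from 10.1 to 87.7 in HCT116, from 21.1 to 107 in DU145 and from 16.0 to 151 in SW1990. The RIP levels were all above all inputs, and the gene was 6.77-fold higher (adjusted p 1.45e-05). NDC1, a multipass membrane protein needed for pore insertion, fell from 48.9 to 35.7 FPKM in Hep3B cells, from 47.6 to 17.6 in HCT116, from 68.7 to 35.4 in DU145 and from 52.3 to 32.9 in SW1990. Its RIP levels were all below all of its inputs, and it was 2.53-fold lower (adjusted p 0.000274). Both calls held under every alternative tried.

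**Figure D2:**
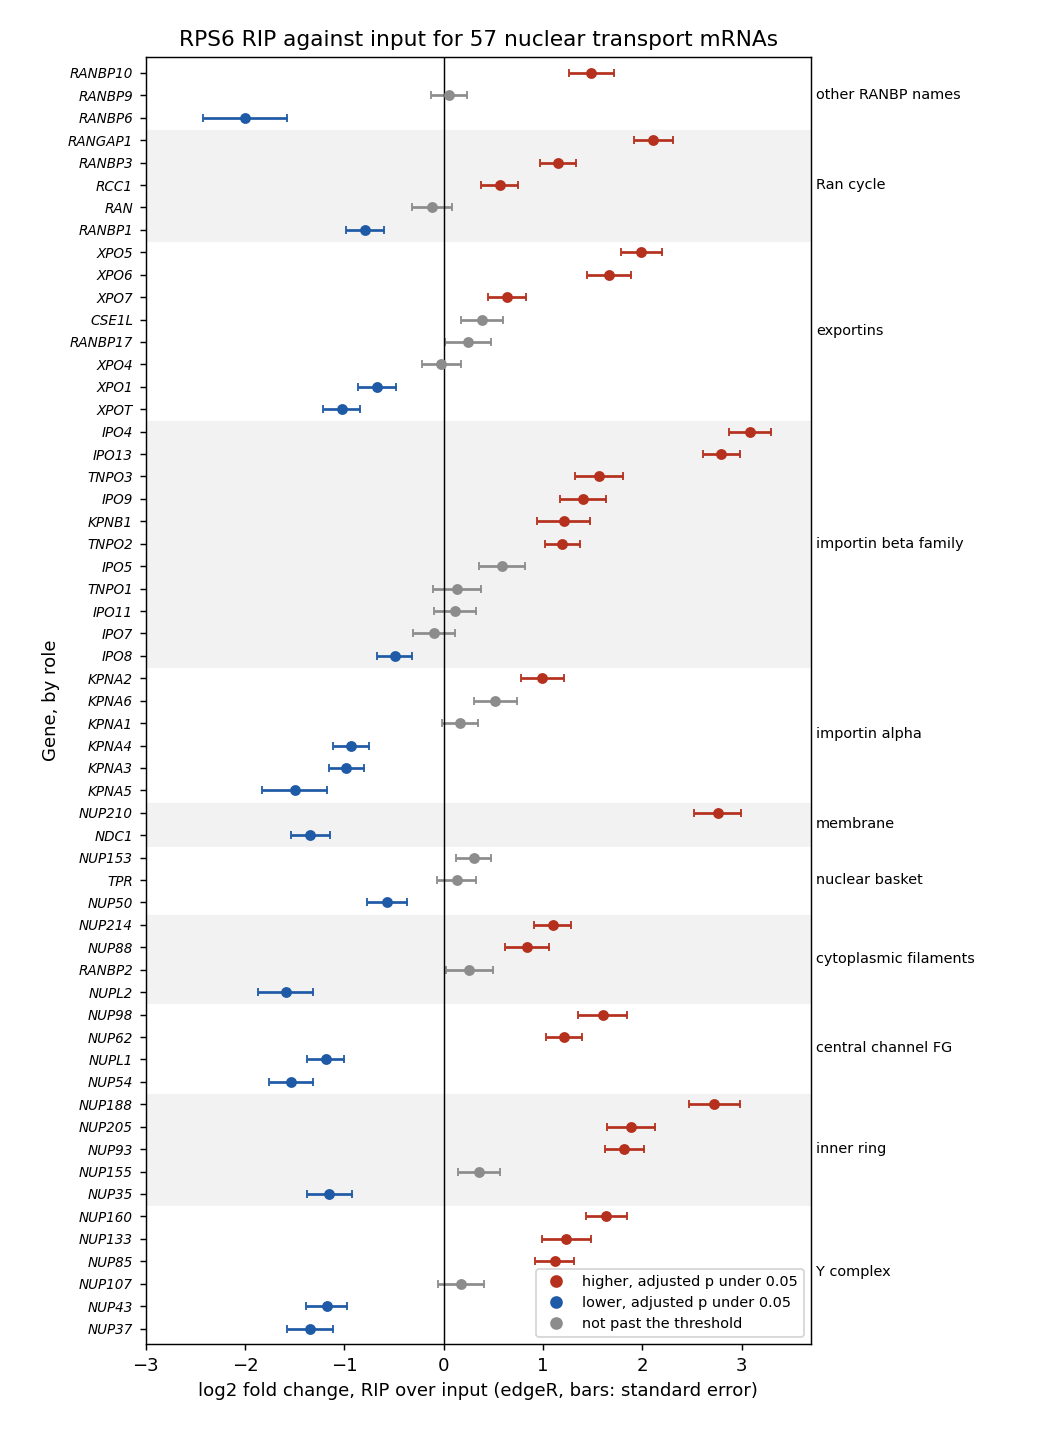
Log2 fold change of RIP over input for the 57 tested mRNAs, from counts with edgeR, blocked by cell line, ordered by role, with bars of 1 standard error. Red points passed the test as higher (25), blue points as lower (16) and grey points did not pass (16), and red and blue points stand side by side in most roles.

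The importin beta family, the receptors that carry cargo through the pore, had 11 tested members, of which 6 were higher, 1 was lower and 4 did not pass, with a median log2 fold change of 1.20, where 32.0% of protein-coding genes were higher and 26.2% lower. IPO4, which carries histones and the ribosomal protein RPS3A, had the highest ratio of the group. Its inputs were 6.59 FPKM in Hep3B cells, 16.2 in HCT116, 15.1 in DU145 and 17.0 in SW1990, and its RIP levels were 46.1, 144, 89.4 and 168 FPKM. All RIP levels were above all inputs, and the gene was 8.47-fold higher (log2 fold change 3.08 ± 0.21, adjusted p 1.23e-05). The deposited locus of IPO4 (hg19, chr14:24641062-24708448) held 12 genes, and whether their reads were kept apart was not tested. IPO13, which works in import and in export, had a locus of its own (chr1:44412611-44433694) and rose from 6.58 to 32.1 FPKM in Hep3B cells, from 7.04 to 38.2 in HCT116, from 9.14 to 41.7 in DU145 and from 5.08 to 44.4 in SW1990. These levels were apart as well, by 6.94-fold (2.80 ± 0.19, adjusted p 1.23e-05).

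KPNB1, importin beta itself, was the most abundant receptor of this family in all 4 inputs and all 4 RIP libraries. It had 134 FPKM in the Hep3B input, 154 in HCT116, 264 in DU145 and 140.1 in SW1990, and 327, 666, 535 and 611 FPKM after RIP. The groups did not overlap, and KPNB1 was 2.31-fold higher (adjusted p 0.00351), a call that was lost without the block (adjusted p 0.0959). TNPO3, which imports SR splicing factors (1.57 ± 0.24), IPO9, which imports histones (1.40 ± 0.23), and TNPO2 (1.20 ± 0.17) were also higher with levels apart. IPO5 (0.59 ± 0.23, adjusted p 0.0545), TNPO1 (0.14 ± 0.24) and IPO11 (0.11 ± 0.21) did not pass. IPO5 passed with DESeq2, on both FPKM scales and without the Hep3B pair. IPO8 was lower (-0.49 ± 0.18, adjusted p 0.0373), but this call was lost under 7 of 13 alternatives.

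IPO7, the host of SNORA23 and an importer of ribosomal proteins and histone H1, had 65.5, 98.6, 50.4 and 94.7 FPKM in the inputs of Hep3B, HCT116, DU145 and SW1990 and 90.8, 122, 51.2 and 144 FPKM after RIP. RIP was above input in each pair, by 0.02 (DU145) to 0.60 (SW1990) on the log2(FPKM + 1) scale, but the groups overlapped. Its counts did not pass and had the other sign (-0.09 ± 0.21, adjusted p 0.734), and limma on log2(FPKM + 1) gave 0.35 ± 0.19 (adjusted p 0.172). SNORA23 itself had 27, 23, 6 and 4 fragments in the inputs and 1, 8, 9 and 1 after RIP, and with no minimum on counts it did not pass (adjusted p 0.526). RIP was below input in 3 of the lines and above it in DU145.

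RANBP6, a relative of IPO5 by sequence, had the lowest ratio of the group. The inputs held 16.2 FPKM in Hep3B cells, 5.52 in HCT116, 11.1 in DU145 and 34.2 in SW1990, and the RIP libraries held 4.82, 5.02, 4.16 and 4.12 FPKM. All RIP levels were below all inputs, although the log2 ratio was -0.12 in HCT116 and -2.78 in SW1990. The inputs differed 6.20-fold between lines and the RIP levels 1.22-fold, so that the spread of its ratios was that of its inputs. RANBP6 was 4.0-fold lower over the pairs (-2.0 ± 0.42, adjusted p 0.00251).

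The importin alpha adaptors, which read classical nuclear localization signals and bind KPNB1, had 1 of 6 tested mRNAs higher and 3 lower, again beside 32.0% and 26.2% of protein-coding genes. KPNA2, known for high levels in dividing cells, rose from 181 to 362 FPKM in Hep3B cells, from 114 to 393 in HCT116, from 94.5 to 209 in DU145 and from 45.3 to 87.1 in SW1990. Each RIP level was above its own input and the groups overlapped, since inputs differed 4.01-fold between lines (1.99-fold higher over the pairs, adjusted p 0.00314, lost without the block). KPNA4 fell from 69.9 to 40.2 FPKM in Hep3B cells, from 25.9 to 14.3 in HCT116, from 85.7 to 35.4 in DU145 and from 19.8 to 17.7 in SW1990. It was lower in each pair, least in SW1990, with overlapping groups (1.91-fold lower, adjusted p 0.00166, lost on log2(FPKM + 0.1) and without the block). KPNA5, the least abundant tested adaptor, fell from 9.07 to 7.10, from 4.26 to 1.23, from 3.17 to 2.51 and from 3.03 to 1.20 FPKM in the same order of lines. Its counts were 2.83-fold lower (adjusted p 0.00326), and the call was lost on both FPKM scales and without the block. KPNA3 was lower too (-0.98 ± 0.18), while KPNA6 (0.52 ± 0.22) and KPNA1 (0.16 ± 0.18) did not pass.

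Exportins carry proteins and RNAs out of the nucleus, and 3 of the 8 mRNAs were higher and 2 lower, which is close to the 32.0% and 26.2% of protein-coding genes. XPO5, the exporter of microRNA precursors, rose from 17.7 to 140.4 FPKM in Hep3B cells, from 29.9 to 206 in HCT116, from 19.4 to 129 in DU145 and from 25.4 to 196 in SW1990. All RIP levels were above all inputs and the log2 ratios of FPKM were close to each other (2.81 ± 0.12, SD, n = 4), while the counts gave 3.98-fold (1.99 ± 0.20, SE, adjusted p 2.89e-05). The deposited locus of XPO5 held 8 genes, and whether their reads were kept apart was not tested. XPO6, which exports actin (1.66 ± 0.22), and XPO7 (0.64 ± 0.19) were higher, the latter with a call lost under 4 alternatives. XPOT, the tRNA exporter, was lower (-1.02 ± 0.19, lost on both FPKM scales and without the block).

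XPO1 (CRM1), which exports proteins with leucine-rich signals and both ribosomal subunits, had 166, 104, 136 and 168 FPKM in the inputs of Hep3B, HCT116, DU145 and SW1990 and 118, 91.6, 145 and 106 FPKM after RIP. RIP was below input in 3 lines and above it in DU145, and the groups overlapped. The counts were 1.59-fold lower (adjusted p 0.0134), a call lost on both FPKM scales (adjusted p 0.280 and 0.251), without the block and without the DU145 pair (adjusted p 0.0535). CSE1L, which returns importin alpha to the cytoplasm, had 88.2, 109, 82.7 and 99.9 FPKM in the inputs and 122, 181, 142 and 175 after RIP. Its levels were apart, but the counts did not pass (0.39 ± 0.21, adjusted p 0.150), whereas log2(FPKM + 1) did with limma (0.69 ± 0.18, adjusted p 0.0194). XPO4 (-0.02 ± 0.20) and RANBP17 (0.25 ± 0.24) did not pass.

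The genes of the Ran cycle were of mixed sign. RAN, the GTPase that gives transport its direction, had 450.2, 620.2, 501 and 744 FPKM in the inputs of Hep3B, HCT116, DU145 and SW1990 and 549, 581, 584 and 819 after RIP. The groups overlapped and the test was not passed (-0.12 ± 0.20, adjusted p 0.655), with the opposite sign on both FPKM scales (0.14 with each). RANGAP1, the activator of GTP hydrolysis by Ran, rose from 50 to 185 FPKM in Hep3B cells, from 34.4 to 169 in HCT116, from 33.2 to 148 in DU145 and from 34.4 to 173 in SW1990. It was 4.32-fold higher, with all RIP levels above all inputs (2.11 ± 0.20, adjusted p 2.01e-05). RANBP1, its soluble partner, fell from 192 to 154, from 246 to 174, from 584 to 327 and from 572 to 343 FPKM in that order of lines. It was lower in each pair with overlapping groups (1.73-fold lower, adjusted p 0.00569, lost on log2(FPKM + 0.1) and without the block). RANBP3, a cofactor of XPO1, was higher (1.15 ± 0.18).

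RCC1, the exchange factor of Ran and the host of SNORA73B, rose from 24.3 to 45.2 FPKM in Hep3B cells, from 76.1 to 154 in HCT116, from 40.7 to 67.8 in DU145 and from 143 to 233 in SW1990. The ratios of the 4 lines were close (log2 0.83 ± 0.14, SD, n = 4), although its inputs differed 5.88-fold. Its counts were 1.48-fold higher (adjusted p 0.0270). That call was lost under 6 alternatives, among them leaving out the Hep3B (adjusted p 0.0868), HCT116 (adjusted p 0.101) or DU145 (adjusted p 0.0905) pair. Its deposited locus (hg19, chr1:28832455-28865812) held 5 genes, SNORA73B and the noncoding snoRNA host gene SNHG3 among them. SNHG3 had 5450 to 19466 fragments in the inputs and 545 to 962 after RIP (log2 fold change -3.57 ± 0.26, adjusted p 1.25e-05). SNORA73B had 36 to 272 fragments in the inputs and 2 to 7 after RIP (-3.43 ± 0.85, adjusted p 0.00660). The RNAs named here thus had differences of opposite sign, with the RCC1 mRNA higher and the noncoding RNAs lower after RIP. The other genes at this locus were not described.

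**Figure D3:**
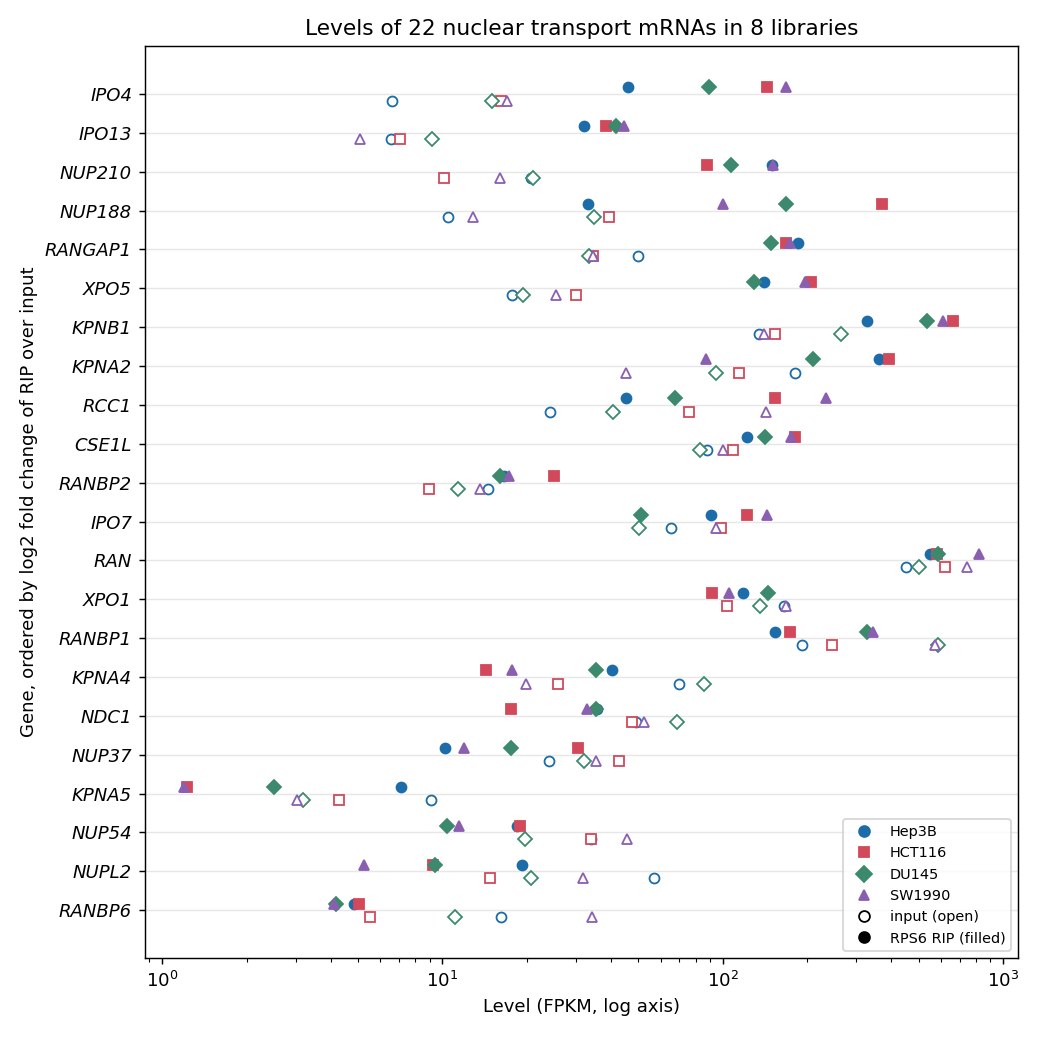
FPKM (log axis) of 22 mRNAs in the 8 libraries, with open symbols for input, filled symbols for RIP and a colour and shape for each cell line, ordered by log2 fold change. IPO4, IPO13, NUP210, RANGAP1, XPO5 and KPNB1 have all filled symbols to the right of all open symbols, and RANBP6, NUP54 and NDC1 have them all to the left.

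The RANBP9 and RANBP10 genes carry a RANBP name but their products are known as parts of a ubiquitin ligase complex. RANBP10 was higher (1.49 ± 0.23) and RANBP9 did not pass (0.05 ± 0.18). Pairs of related genes could be compared within lines, as both genes of a pair come from the same library, although the pairs were chosen with values known and no test was made. RANBP10 had a higher log2 ratio than RANBP9 in 4 of 4 lines, by 1.01 ± 0.52 (SD, n = 4). IPO5 exceeded RANBP6 by 2.39 ± 1.29, KPNA1 exceeded KPNA5 by 1.51 ± 0.59 and IPO7 exceeded IPO8 by 0.55 ± 0.29, also in 4 of 4 lines. For TNPO2 against TNPO1 (0.85 ± 0.72) and XPO7 against RANBP17 (0.60 ± 0.74) the difference had this sign in 3 of 4 lines. KPNA3 and KPNA4 were within their spread (0.02 ± 0.38), as were KPNA1 and KPNA6 (-0.12 ± 0.51).

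Because the counts and the FPKM of these genes gave different sizes of change, their quotient was followed. The deposited count of a gene divided by its FPKM is proportional to the transcript length that the authors' software used in that library, called effective length here. The log2 ratio of this quotient, RIP over input, was negative for most of the group. Its median was -0.44 in Hep3B cells, -0.16 in HCT116, -0.29 in DU145 and -0.13 in SW1990. Protein-coding genes had -0.27, -0.14, -0.15 and -0.12. A factor common to all genes of a library can also enter the quotient and was not estimated. Only differences between genes of the same pair can therefore be read as length. By call, the median of the mean over the lines was -0.08 for the 25 mRNAs that were higher, -0.38 for the 16 that were lower and -0.32 for the 16 that did not pass. XPO5 had the lowest mean log2 ratio (-0.88), followed by KPNA1 (-0.71), XPOT (-0.58) and KPNA5 (-0.56). IPO13 (0.28) and NUP188 (0.19) had the highest. The sign of the change differed between counts and FPKM for RAN, XPO4 and IPO7, none of which passed the test. Over the 57 mRNAs the length itself had a Spearman correlation of 0.25 with the log2 fold change, and over 14607 protein-coding genes 0.26. Its points share the 8 libraries, and these are descriptions across genes, which are not independent. Whether isoforms lay behind the differences in this quotient was not tested.

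**Figure D4:**
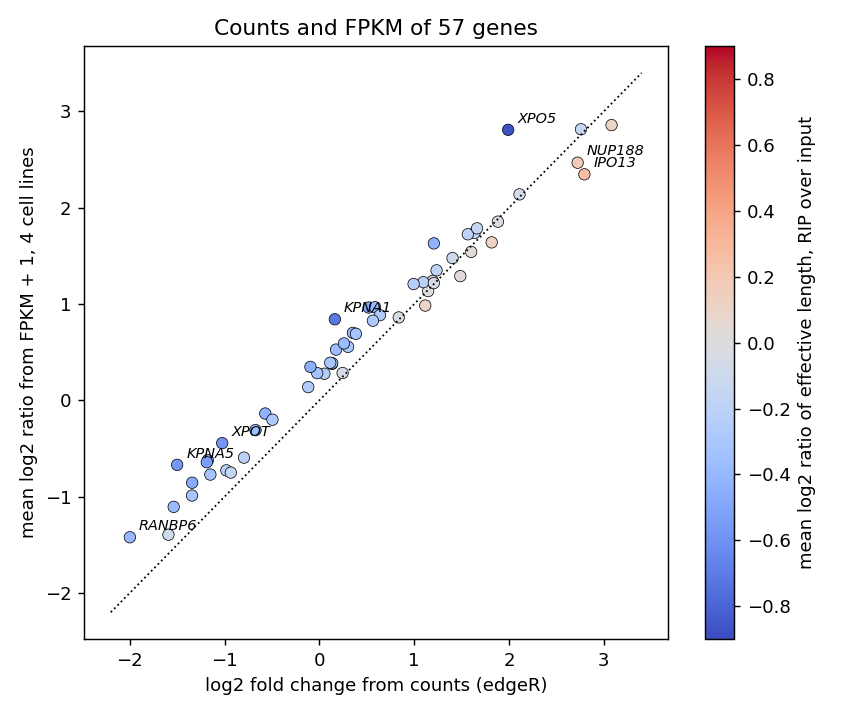
Mean log2 ratio of RIP to input over 4 lines from FPKM + 1 (vertical axis) against the log2 fold change from counts (horizontal axis) for 57 mRNAs, coloured by the mean log2 ratio of effective length, with a dotted line of equality. Most points lie above the line and are blue (a lower effective length in RIP, with no factor per library removed). XPO5 lies farthest above it, while IPO13 and NUP188 lie below it and are red.

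The last comparison set the levels of the 4 inputs side by side, as a description with 1 input per line. The summed level of the 58 mRNAs was 2915 FPKM in Hep3B cells, 3128 in HCT116, 3563 in DU145 and 3652 in SW1990. After RIP it was 4554, 6093, 5291 and 6132 FPKM, so that all RIP sums lay above all input sums. The largest share came from the Ran cycle, with 772, 1001, 1201 and 1547 FPKM in the inputs, most of it RAN and RANBP1. RANBP1 was the most abundant mRNA of the group in the DU145 input, and RAN in the others.

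The highest input level fell in Hep3B for 19 of the 57 mRNAs, in HCT116 for 12, in DU145 for 16 and in SW1990 for 10, against 25.7%, 17.1%, 26.2% and 31.0% of all genes, which makes 33.3%, 21.1%, 28.1% and 17.5% of the group. These counts moved with the unit and the library. On TMM-scaled counts without length, HCT116 had 20 and SW1990 had 4, and among RIP libraries HCT116 had 19, DU145 8 and SW1990 17. Hep3B and HCT116 were deposited in another table than DU145 and SW1990, and the scaling of each table was its own, so levels are to be compared across tables with care. The widest inputs were those of RANBP6 (6.20-fold between highest and lowest), RCC1 (5.88-fold), KPNA4 (4.33-fold) and KPNA2 (4.01-fold). RCC1 and KPNA2 kept their spread after RIP (5.17-fold and 4.51-fold), whereas KPNA4 had 2.80-fold and RANBP6 1.22-fold. In such bulk libraries, fewer cells that express a gene and less RNA of it per cell cannot be told apart.

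Of the 58 genes, 36 shared their deposited locus with at least 1 other gene, and whether the counting used strand is not given in the sources used here. The calls of 18 of the 41 mRNAs that passed held under all 13 alternatives, and 30 held under all except the fit without the block. Each p-value rests on 4 pairs from different lines, with 1 RIP and 1 input library in each. The tests also draw on the spread of other genes, so a p-value does not measure the spread of a gene's own 4 pairs alone.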

How the data were processed

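RNA from RPS6 RIP and from input was sequenced in 4 cell lines, with 8 libraries in all. The authors aligned reads to hg19 with TopHat (TopHat2 2.0.9 and CASAVA 1.8 per the submitters' processing notes). The counting tool, its annotation and any use of strand are not given in the sources used here. The authors deposited FPKM, normalized for length and depth, and an estimated count for each gene and library. These counts were scaled by 1 factor per library, and 92.3% to 94.3% of them became whole fragments after division by it (tolerance 0.05). The authors also deposited a fold change (ratio), p-value and q-value for each line, which were not used. Locus starts were counted from 0 in the deposited tables and are given here counted from 1.

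Counts had been planned as raw. As they are scaled estimates, they were rounded and tested with edgeR 4.0.16 (R 4.3.3; quasi-likelihood, TMM, mean of at least 10 counts, Benjamini-Hochberg over all genes, threshold 0.05), with the cell line as a block. The lines pair RIP with input by design, and deviations from group means correlated at 0.828 to 0.876 within a line over 19921 genes. Between lines the correlation was at most -0.0444. Centring on group means makes these values negative on average when those within a line are positive, so their sign is no separate evidence of pairing. Counts were simulated over 19921 genes, with the same spread set for every gene and few genes changed. There, 94 of 98 genes changed 4-fold and 19 of 100 changed 2-fold were recovered, with 6 false among 119 calls. In the data 5282 genes were higher and 4960 lower. The simulation differs from the data in this, so it cannot say how often a 2-fold change is missed here. Alternatives were no block, DESeq2 1.42.0, upper-quartile factors, centring on protein-coding genes (19162 by RefSeq symbol or synonym), no minimum or a mean of 50 counts, recovered fragments, limma 3.58.1 on log2 FPKM after adding 1 or 0.1, and each pair left out. RIP libraries in place of inputs for the spread between lines were chosen after seeing the data. Python 3.11.15 with pandas 2.3.3 and NumPy 2.4.6 did the rest, and matplotlib 3.10.9 drew the plots. Intervals were not drawn for counts, since fragments are not independent molecules.

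Values in every library are given for the snoRNA hosts, RAN, KPNB1, XPO1, CSE1L, RANGAP1, RANBP1, RANBP2 and KPNA2, the 6 largest changes in each direction that passed with the same sign in 4 lines, the 4 widest inputs and the 3 widest ranges of ratio. Other genes were named by role. The genes, the wider list of nuclear transport genes, the marker lists and the tests were chosen with earlier results of these data known.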

Additional observations from a re-analysis of the deposited data

Results flagged for a closer look

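For each of the 57 mRNAs, the 4 input levels, the 4 RIP levels and the 4 ratios were searched for a line far from the others, on log2(FPKM + 1). In 11 of 171 such groups the gap of 1 line to its neighbour, as a share of the whole range, was above Dixon's critical value, and chance flags about 1 in 20 groups. Explanations were not weighed.

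Among the inputs, the outlying line was Hep3B each time. The Hep3B input was above the others for RANGAP1 (5.67 against 5.10 to 5.15, share 0.911) and for NUP107 (5.05 against 4.44 to 4.53, share 0.858). It was below them for XPO6 (5.30 against 6.61 to 6.71, share 0.930) and IPO4 (2.92 against 4.01 to 4.17, share 0.871).

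Among the RIP libraries, HCT116 was below the others for NDC1 (4.22 against 5.08 to 5.20, share 0.881). HCT116 was above them for KPNA3 (4.68 against 3.79 to 3.91, share 0.866) and RANBP2 (4.70 against 4.09 to 4.19, share 0.844). SW1990 was above them for RAN (9.68 against 9.10 to 9.19, share 0.843), and DU145 for XPOT (6.83 against 5.65 to 5.79, share 0.883).

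Among the ratios, DU145 was the lowest for KPNA1 (0.61 against 0.90 to 0.94, share 0.868). SW1990 was the lowest for NUP54 (-1.91 against -0.86 to -0.80, share 0.946), a gene that was lower in RIP in the other lines as well.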

How the results depend on the processing

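Counts of mRNAs called depended most on the block. Without the cell line block, 15 of the 57 mRNAs were higher and 4 lower in place of 25 and 16, and 6 of the wider list were higher and 6 lower in place of 17 and 15, while over all genes 1427 were higher and 1344 lower in place of 5282 and 4960. With limma, 7 were lower on log2(FPKM + 0.1) and 10 on log2(FPKM + 1). Leaving out each pair gave 23 to 24 higher and 13 to 15 lower, and 14 to 17 higher and 12 to 18 lower in the wider list. Signs turned for IPO7 (0.35 on both FPKM scales) and RAN (0.14 on both), neither of which passed under any setting. The FPKM scales shifted the median of all genes to 0.13 and 0.14, upper-quartile factors to -0.18 and no minimum on counts to -0.60. On TMM-scaled counts without length, the median log2 ratio of the mRNAs in Hep3B, HCT116, DU145 and SW1990 was 0.051, 0.46, 0.44 and 0.71, in place of 0.66, 0.75, 0.68 and 0.80. The number of mRNAs with their highest level in a line became 20 in HCT116 and 4 in SW1990 on that scale, and 19 in HCT116, 8 in DU145 and 17 in SW1990 in RIP libraries. The ratio of highest to lowest level in RIP was 1.22 for RANBP6 and 2.80 for KPNA4. The cause of these shifts was not tested. Of all values recomputed, 307 kept their side of the threshold or stayed within their spread, 22 lost a call and 2 gained one. Counts, medians or ratios moved in 17 cases, and the sign turned in 4. Depth limits KPNA7 and the snoRNAs, with few fragments in each library.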

Other observations

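A wider list of 49 nuclear transport genes outside the name rule had 48 tested, of which 17 were higher in RIP, 15 were lower and 16 did not pass, with a median log2 fold change of 0.24. These counts are close to those of protein-coding genes, of which 32.0% were higher and 26.2% lower. In this list the cofactors of Ran and of the receptors had 0 of 6 higher and 5 lower (median -1.03). The other nucleoporins had 3 of 8 higher and 1 lower (median 0.50), the mRNA export factors 7 of 20 higher and 5 lower (median -0.01), and the nuclear lamina and envelope 7 of 14 higher and 4 lower (median 0.48). The shares of the mRNA export factors were near those of protein-coding genes, and the other groups are small.

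LMNA, the gene of lamins A and C, rose from 40.4 to 174 FPKM in Hep3B, from 109 to 1072 in HCT116, from 225 to 747 in DU145 and from 49.2 to 427 in SW1990 (log2 fold change 2.65 ± 0.25, edgeR adjusted p 2.13e-05). SUN2, an inner membrane protein that links the lamina to the cytoskeleton (2.18 ± 0.19), and MCM3AP, the scaffold of an mRNA export complex at the pore (2.15 ± 0.26), were also higher. THOC7 fell from 27.2 to 6.81 FPKM in Hep3B, from 40.7 to 6.0 in HCT116, from 53.5 to 5.77 in DU145 and from 105 to 8.40 in SW1990 (-3.38 ± 0.30, edgeR adjusted p 1.55e-05). ENY2 (-2.78 ± 0.35) and NXT2 (-2.67 ± 0.35), the latter a partner of the export receptor NXF1, were lower too. MCM3AP and ENY2, which belong to the same complex, thus had differences of opposite sign.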
